A study of Mus musculus with 18 samples.

Results

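The 34 genes described here equip mature monocytes, macrophages and neutrophils: chains of leukocyte integrins, receptors for growth factors and for immunoglobulin, subunits of the NADPH oxidase, sensors of microbial products, surface markers and granule proteins. They were listed by symbol and all 34 were found among the 56748 genes of the count table. A filter on low counts kept 31 of the 34, of 14985 genes kept in all. Their expression was measured in RN2, a mouse line of acute myeloid leukemia (AML) cells with MLL-AF9 and NrasG12D whose genotype label reads wild type. The cells were transduced by lentivirus with 1 of 4 constructs and sorted on day 5, and polyA RNA was sequenced in directional libraries. The 6 groups, of 3 libraries each, were seBE under 1 nM rapamycin, seBE under vehicle, intact BE under 1 nM rapamycin, intact BE under vehicle, the catalytic mutant, and nCas9. Rapamycin or vehicle was given for 24 h before the sort. Intact BE is a base editor, a nickase joined to a DNA deaminase, the catalytic mutant carries the change E63A in its deaminase evoA1, nCas9 is the Cas9 nickase, and seBE is taken here as the editor that the study's title calls controlled by a small molecule. The treatment label of the catalytic mutant and nCas9 libraries names vehicle, while the protocol names drug or vehicle for intact BE and seBE only. All groups are 1 cell line, and the libraries of a group are labelled biological replicates with no word on separate transductions. The p-values therefore set group differences against the spread between these libraries only, estimated in the fit reported over all 6 groups. The question behind the design was whether base editor toxicity comes with changes in gene expression.

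Mature phagocytes bind and engulf microbes through integrins and Fc receptors, kill them with reactive oxygen from the NADPH oxidase and with granule proteins, and live on colony-stimulating factors. In AML driven by MLL fusions, myeloid cells stop short of this stage, and genes of the kind listed here are commonly read as markers of how far the cells mature. The transcription factors PU.1 (Spi1), C/EBP alpha (Cebpa) and C/EBP epsilon (Cebpe) are known to drive many of them during normal monocyte and neutrophil development.

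Library totals ran from 13835979 to 23284932 counts. All 9 markers listed for myeloid progenitors or blasts (among them Kit, Mpo, Elane and Hoxa9) were measured, with a summed level of 4194 to 5169.8 CPM (counts scaled to the size of the library, with TMM factors). The 6 markers of monocytes and macrophages summed to 1182 to 1598 CPM and the 7 of neutrophils to 103 to 667 CPM, and 5 of the 6 and all 7 are members here. Of other cell types, 6 lymphocyte markers summed to at most 0.897 CPM, 5 erythroid markers to 1.82 CPM, 5 fibroblast and endothelial markers to 0.873 CPM and 4 dendritic cell markers to 1.16 CPM. The 4 megakaryocyte markers reached 16.7 CPM, nearly all from Itga2b. The 5 mast cell and basophil markers summed to 121 to 188 CPM. Replicate 3 of the catalytic mutant stood apart from the other libraries of its group, at 36.3 and 37.8 on a chi-square measure per gene, against 10.1 between replicates 1 and 2. Replicate 3 of seBE under rapamycin stood at 28.3 and 26.5, against 16.1 between its replicates 1 and 2. Without replicate 3 of the mutant no call of a member was lost, and without replicate 3 of seBE under rapamycin those of Csf2rb and Fcgr3 in seBE against intact BE under rapamycin were. Where leaving out a library ended a call, it is named with the result.

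RN2 cells held the adaptors, the lysozyme gene and several oxidase subunits at high levels, while Fpr1, Fpr2, Mmp8, Camp, Fcgr1 and Ltf were at or near the limit of measurement. Levels between genes are compared in TPM, which divides a count by gene length before scaling each library to the same total, as means over 18 libraries with their lowest and highest library. Tyrobp, the signalling adaptor DAP12, led at 1835 TPM (1623 to 2082). Ly6c2, the monocyte surface protein Ly6C, followed at 1351 TPM (1027 to 1515), and Lyz2, lysozyme, at 1330.0 TPM (1102 to 1676). Fcer1g, the gamma chain shared by several Fc receptors, was the fourth, at 1198 TPM (1028 to 1494). The ranges of Ly6c2, Lyz2 and Fcer1g overlapped, so their order among themselves lay within the spread of the libraries. S100a8 and S100a9, the calgranulins of neutrophils and monocytes, averaged 847 and 721 TPM, but their libraries spread from 202 to 1659 TPM for S100a8 and from 187 to 1554 TPM for S100a9. Cyba stood at 812 TPM, Itgb2 at 561, Fcgr3 at 534, Ncf1 at 382 and Ncf4 at 309 TPM. A middle group, from Cd33 at 121 TPM to Csf1r at 10.8 TPM, held 13 genes. Below it came Lcn2, Cx3cr1, Mmp9 and Itgax, at 4.76, 4.43, 3.14 and 2.96 TPM.

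At the low end, 6 members were at or near the limit of measurement. Fpr1, a receptor for formylated bacterial peptides, had 0 counts in all 18 libraries, where 3 counts per library correspond to 0.129 to 0.217 CPM. Fpr2, its relative, had 19 counts in all and 0 in 13 libraries, and Mmp8, neutrophil collagenase, had 41 counts and 0 in 10 libraries. These 3 genes did not pass the filter and were not tested. Camp (cathelicidin, 106 counts), Fcgr1 (the high-affinity receptor for IgG, 167 counts) and Ltf (lactoferrin, 196 counts) passed it but were at 0 in 4, 1 and 4 libraries. None of these 3 passed the threshold in a comparison, and no fold change is given for them. Such floors cover counting error only.

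**Figure D1:**
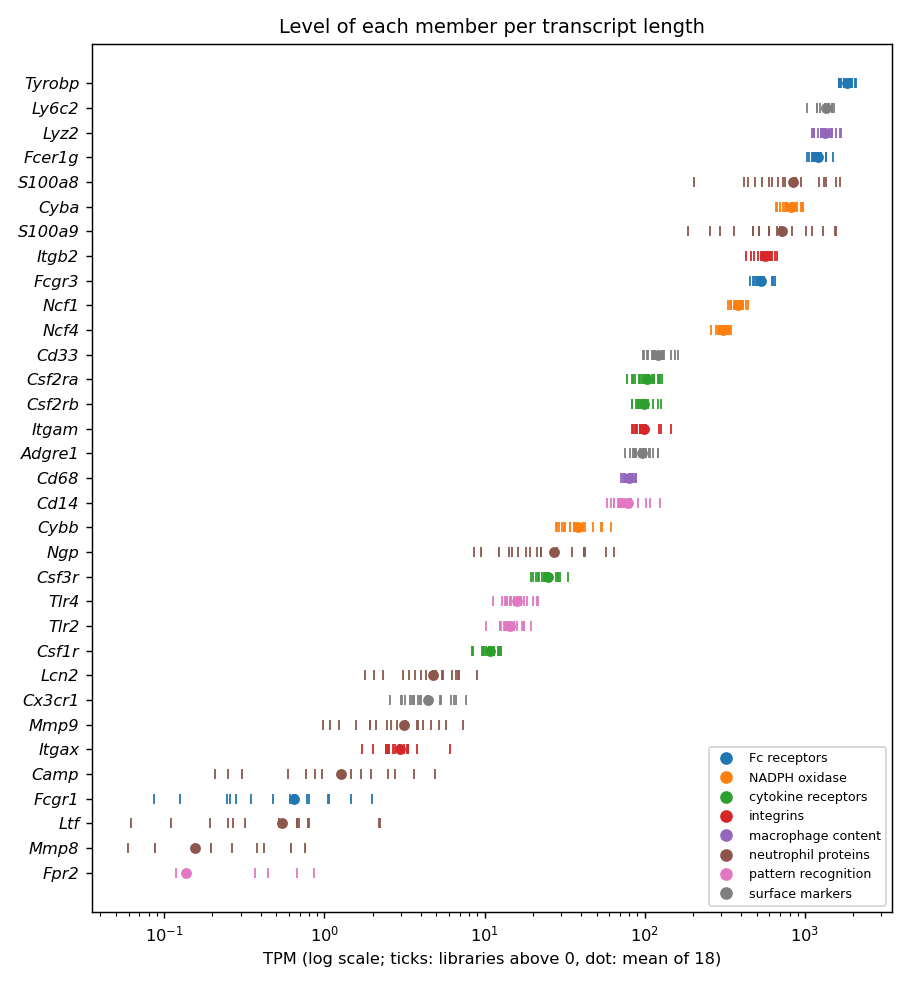
Level of the 33 members with at least 1 count, in TPM on a log axis, with a tick for each library above 0 and a dot for the mean of 18 libraries, coloured by role. Tyrobp is at the top with a mean of 1835 TPM, while Mmp8 and Fpr2 lie under 1 TPM.

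The clearest movement was with rapamycin in cells carrying intact BE, where 7 of 31 tested members rose and 0 fell at an adjusted p under 0.05 (edgeR's quasi-likelihood test, Benjamini-Hochberg over 14985 genes). The 7 were Itgam, the alpha chain of the integrin Mac-1, Lyz2, Cd33, a lectin of myeloid cells that binds sialic acid, Cd14, the co-receptor for bacterial lipopolysaccharide, Csf2rb, the signalling chain of the GM-CSF receptor, Fcgr3, a low-affinity receptor for IgG, and Tyrobp. Over all tested genes 3.32% passed, 1.98% upward and 1.34% downward. The members' median log2 fold change was 0.21, with 22 of 31 above 0, beside -0.00 over all tested genes. In bulk RNA, fewer cells of a type and less RNA per cell cannot be told apart. The summed level of the mast cell and basophil markers was also higher with the drug, at 168 to 188 CPM in intact BE under rapamycin against 121 to 135 CPM under vehicle. It was 139.5 to 148 CPM in seBE under rapamycin and 139.8 to 151 CPM in seBE under vehicle. Of the 5 markers 4 were tested and 1 was at 0 in all libraries. The part of these markers in the result was not tested.

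With the same dose of rapamycin in seBE, 0 of 31 members passed in edgeR's quasi-likelihood test and 0% of all tested genes did. At an unadjusted p under 0.05 there were 2 members, Lyz2 and Cybb, and DESeq2 called 0 members. The median log2 fold change of the members was 0.05, beside 0.00 over all genes. The difference between both drug effects, seBE minus intact BE, passed for 1 of 31 members, Itgam, where 0.187% of all genes passed, 0.0734% higher and 0.113% lower. For the other 6 genes that rose in intact BE it ranged from -0.62 ± 0.172 (SE) for Cd14, adjusted p = 0.203, to -0.22 ± 0.107 for Tyrobp, adjusted p = 0.718. A difference between the editors in their drug effect was therefore not shown for these 6. If rapamycin is the small molecule that controls seBE, rapamycin against vehicle there changes the state of the editor as well as drug exposure. In seBE these cannot be told apart. Set directly against each other under rapamycin, seBE and intact BE differed in 8 of 31 members, 2 higher and 6 lower in seBE, where 4.69% of all genes passed, 2.04% higher and 2.66% lower. Higher were Cyba and Cx3cr1, and lower were Itgam, Cd14, Csf2rb, Cybb, Fcgr3 and Tlr4. A fit of the compared libraries alone kept 4 of these 8 calls, those of Itgam, Cd14, Cybb and Cx3cr1. Over all genes it called 312, beside 703 in the fit of all libraries. Mitochondrial transcripts took 2.99 to 4.61% of counts in seBE under rapamycin, against 1.99 to 2.25% in intact BE under rapamycin, and their part in these results was not tested. Both drug comparisons share libraries with those across editors, so their results are not independent.

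**Figure D2:**
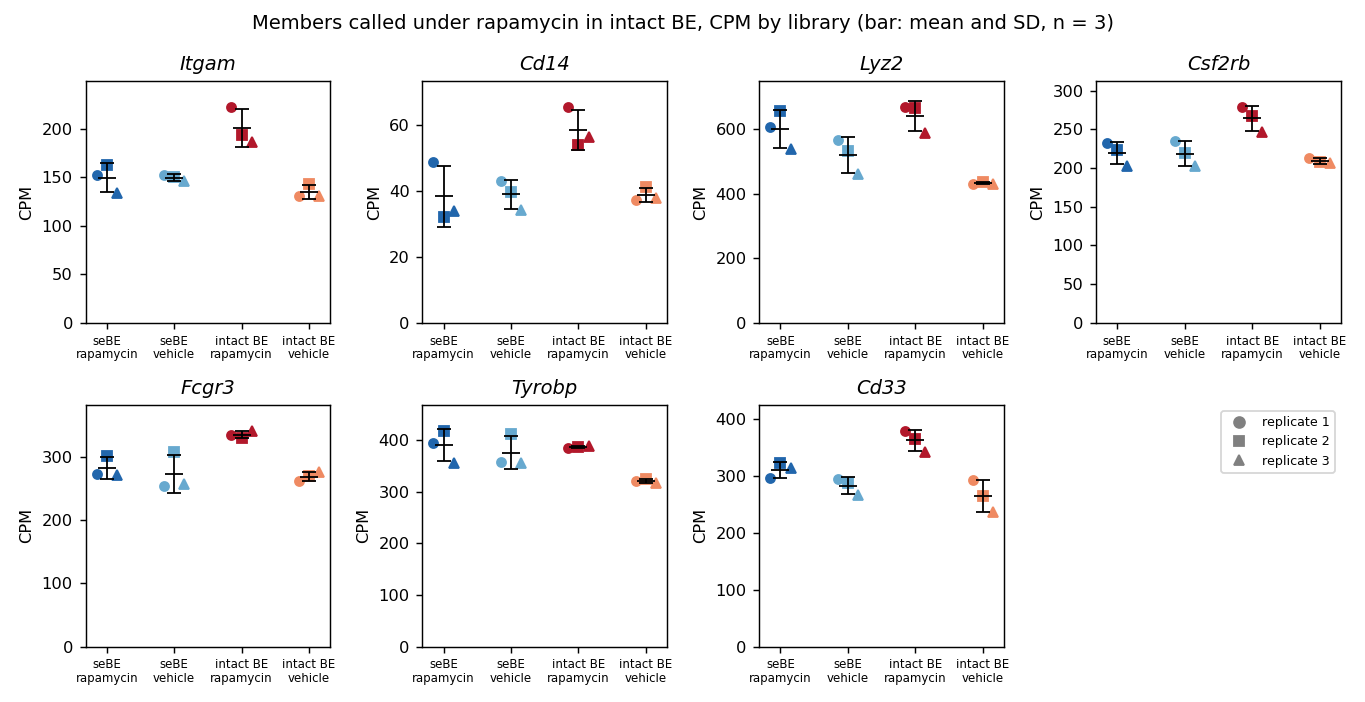
CPM of the 7 members that rose with rapamycin in intact BE, for seBE under rapamycin, seBE under vehicle, intact BE under rapamycin and intact BE under vehicle, with 3 libraries as symbols and the mean with SD as a bar (n = 3). The 3 intact BE libraries under rapamycin lie above the 3 under vehicle in each panel, while in seBE the libraries of both arms overlap in every panel except that of Cd33.

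Without the drug, intact BE had more member calls against nCas9 than the other constructs, as it had over all genes. All 8 of these member calls were lower. Intact BE under vehicle against nCas9 gave 0 higher and 8 lower of 31: Fcer1g, Tyrobp, Ncf4, Cyba, Lyz2, Itgax, Csf2ra and Csf3r. Of all tested genes 23.0% passed, 13.1% higher and 9.83% lower. The median log2 fold change was -0.17 over the members and -0.04 over all genes. Against the catalytic mutant, intact BE under vehicle had 1 member higher, Cybb, and 5 lower, Csf2ra, Cyba, Lyz2, Ncf4 and Tyrobp, with 21.0% of all genes passing, 11.6% higher and 9.33% lower. The share of members that passed in either direction, 25.8% against nCas9 and 19.4% against the mutant, was thus near that of all genes in both. By direction it was not: against nCas9 0 members were higher, where 13.1% of all genes were. All 25.8% were lower, where 9.83% of all genes were. Mitochondrial transcripts took 1.78 to 2.02% of counts in intact BE under vehicle, against 3.73 to 5.47% in the catalytic mutant and 4.43 to 5.54% in nCas9, and their part in these results was not tested. The mast cell and basophil markers summed to 121 to 135 CPM in intact BE under vehicle, against 151 to 188 CPM in the mutant and 151 to 164 CPM in nCas9. The megakaryocyte markers summed to 6.69 to 9.31 CPM, against 11.6 to 15.5 and 11.01 to 13.1 CPM in the same groups, with Itga2b lower in intact BE than in nCas9 (log2 -0.69 ± 0.200, adjusted p = 0.0102). The part of these markers was not tested either. With a trend of fold change on gene length removed, 5 members passed against nCas9, where 2897 of all genes passed, beside 3442 in the fit reported. The calls of Tyrobp (adjusted p = 0.0524), Csf3r (0.0551), Csf2ra (0.0594), Lyz2 (0.363) and Cyba (0.515) were lost, and Itgb2 and Cd33 were gained.

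The other constructs moved few members. The catalytic mutant against nCas9 had Itgb2, the beta chain shared by the leukocyte integrins, higher and Fcer1g lower, 2 of 31 where 4.30% of all genes passed, 2.24% higher and 2.06% lower. For seBE under vehicle against nCas9 the only call was Fcer1g, lower, 1 of 31 where 4.56% of all genes passed, 2.64% higher and 1.93% lower. Fcer1g was below all nCas9 libraries in every one of the 3 constructs, but the 3 comparisons share the nCas9 libraries. Set against intact BE under vehicle, seBE under vehicle had Csf2ra, Cyba and Ncf4 higher and Cybb lower, 4 of 31 where 3.99% of all genes passed, 1.68% higher and 2.32% lower. The same intact BE libraries serve in this comparison and in that with the catalytic mutant. Mitochondrial transcripts took 2.66 to 4.10% of counts in seBE under vehicle, and their part here was not tested either. In all, 17 members passed in at least 1 of 9 comparisons and 14 tested members in none.

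**Figure D3:**
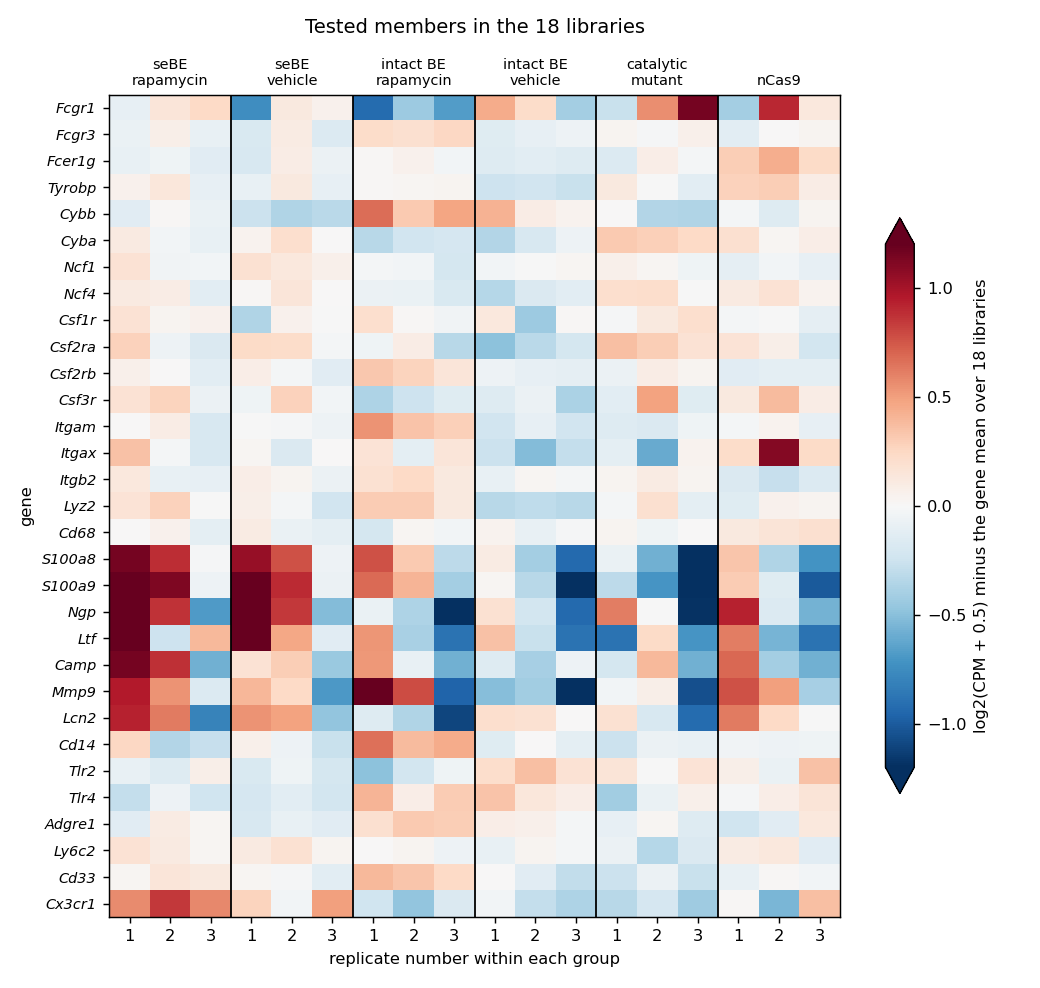
Level of the 31 tested members in 18 libraries, as log2(CPM + 0.5) minus the mean of the gene, with colours ending at 1.2 on either side. Columns are the replicate numbers within each group and rows are ordered by role. For S100a8, S100a9 and Ngp the colour moves toward blue at replicate 3 in every group, while Itgam, Lyz2 and Cd14 are red in all 3 libraries of intact BE under rapamycin.

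The promoters of 4 of the 7 genes that rose with rapamycin in intact BE are shown, and none of Cd14, Csf2rb and Tyrobp, to set the genes beside motifs of myeloid factors. Windows of 300 bases, 250 before and 50 from the transcription start on, came from RefSeq on GRCm38.p6, an older build than the GRCm39 of the counts, and 25 of the 34 members had an entry. Motifs were chosen after the values were seen and were searched on both strands: GAGGAAG for PU.1, TTGCNNAA for C/EBP and TGTGGT for RUNX. Capitals mark the matches, and no match to a motif overlapped one to another motif.
Itgam: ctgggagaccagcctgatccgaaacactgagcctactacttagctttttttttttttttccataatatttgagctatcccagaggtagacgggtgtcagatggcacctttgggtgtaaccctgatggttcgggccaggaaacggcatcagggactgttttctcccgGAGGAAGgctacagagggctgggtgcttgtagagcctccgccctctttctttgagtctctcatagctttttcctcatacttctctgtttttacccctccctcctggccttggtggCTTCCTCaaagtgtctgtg
Lyz2: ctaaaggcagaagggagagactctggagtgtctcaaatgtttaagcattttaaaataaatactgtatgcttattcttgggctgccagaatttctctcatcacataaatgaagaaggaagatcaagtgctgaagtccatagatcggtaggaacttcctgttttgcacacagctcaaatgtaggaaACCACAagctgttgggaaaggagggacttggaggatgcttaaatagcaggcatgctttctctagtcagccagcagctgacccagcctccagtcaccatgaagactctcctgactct
Fcgr3: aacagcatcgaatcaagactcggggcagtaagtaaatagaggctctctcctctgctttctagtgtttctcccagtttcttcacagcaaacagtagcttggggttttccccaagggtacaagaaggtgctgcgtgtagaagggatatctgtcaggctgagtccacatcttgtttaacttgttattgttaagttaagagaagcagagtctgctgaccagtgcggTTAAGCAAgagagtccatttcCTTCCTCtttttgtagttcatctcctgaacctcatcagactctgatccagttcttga
Cd33: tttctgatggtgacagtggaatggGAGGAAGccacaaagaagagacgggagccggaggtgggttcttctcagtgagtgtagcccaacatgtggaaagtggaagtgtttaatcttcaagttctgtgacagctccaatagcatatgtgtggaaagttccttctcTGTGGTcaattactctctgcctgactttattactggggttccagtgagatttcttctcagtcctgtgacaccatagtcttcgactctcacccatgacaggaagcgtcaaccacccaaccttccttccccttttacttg
The windows lie at chr7:128062390-128062689 on the plus strand for Itgam, chr10:117282223-117282522 on the minus strand for Lyz2, chr1:171059354-171059653 on the minus strand for the first of 2 starts of Fcgr3, and chr7:43533122-43533421 on the minus strand for Cd33. Itgam held 2 PU.1 matches, beginning at base -84 and base 32 from the start, and Lyz2 held 1 RUNX match at -66. Fcgr3 had a C/EBP match at -28 and a PU.1 match at -7, and Cd33 a PU.1 match at -226 and a RUNX match at -88. Over all 32851 windows of the table, 13.6% held the PU.1 motif, 10.8% the C/EBP motif and 16.8% the RUNX motif. Of 27 member windows, 12 held the PU.1 motif, 8 the C/EBP motif and 11 the RUNX motif. A match describes the letters of the window and no binding was measured.

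Itgam rose with rapamycin in intact BE, its only call upward. The gene (ENSMUSG00000030786.19) encodes CD11b, which pairs with the beta chain Itgb2 to form Mac-1, the receptor for complement-coated particles. It had 153, 163 and 134 CPM in seBE under rapamycin and 152, 151 and 146 CPM in seBE under vehicle. It had 223, 193 and 186 CPM in intact BE under rapamycin and 130.5, 143 and 131 CPM in intact BE under vehicle, and 137, 136 and 147 CPM in the catalytic mutant and 151, 158 and 142 CPM in nCas9. The 3 intact BE libraries under rapamycin were above all other 15 libraries, and in seBE both arms overlapped. Rapamycin in intact BE gave log2 fold change 0.58 ± 0.0795 (SE), adjusted p = 1.05e-05, a fold of 1.49, and rapamycin in seBE a log2 fold change of -0.00 ± 0.0794, adjusted p = 0.999. The drug effect in seBE minus that in intact BE was -0.58 ± 0.112 (adjusted p = 0.0127) in log2. That call was lost without replicate 1 of intact BE under rapamycin or replicate 3 of intact BE under vehicle (adjusted p between 0.0569 and 0.0928). Under rapamycin seBE was below intact BE (log2 fold change -0.42 ± 0.0790 (SE), adjusted p = 0.00109). The gain with rapamycin in intact BE and the gap between the editors under rapamycin kept their calls in all 13 alternatives run for each.

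Its partner Itgb2 (ENSMUSG00000000290.14) had 579, 499 and 494 CPM in seBE under rapamycin and 559, 544 and 506 CPM in seBE under vehicle. It stood at 603, 627 and 575 CPM in intact BE under rapamycin and 499.7, 539 and 523 CPM in intact BE under vehicle, and at 542, 566 and 543 CPM in the catalytic mutant and 470.2, 438 and 474 CPM in nCas9. In intact BE the libraries under rapamycin were all above those under vehicle, yet the change missed the threshold (log2 fold change 0.21 ± 0.0693 (SE), adjusted p = 0.0976). The catalytic mutant was higher than nCas9 (log2 fold change 0.26 ± 0.0695 (SE), adjusted p = 0.0275), with no overlap of libraries. That call was lost without replicate 1 or 2 of the catalytic mutant or replicate 1 or 2 of nCas9 (adjusted p between 0.0523 and 0.144). Itgax, CD11c, the alpha chain of p150,95 on dendritic cells and some macrophages, was scarce: its 18 libraries held 2.64 to 9.80 CPM. It had 5.63, 4.23 and 3.69 CPM in seBE under rapamycin and 4.38, 3.73 and 4.32 CPM in seBE under vehicle, and 4.87, 3.92 and 4.78 CPM in intact BE under rapamycin and 3.52, 2.83 and 3.43 CPM in intact BE under vehicle. It had 3.90, 2.64 and 4.42 CPM in the catalytic mutant and 5.07, 9.80 and 5.13 CPM in nCas9. The libraries of intact BE under vehicle lay below those of nCas9 without overlap (log2 fold change -1.02 ± 0.293 (SE), adjusted p = 0.00996). The highest value was replicate 2 of nCas9, and the call was lost without replicate 2 of intact BE under vehicle or replicate 2 of nCas9 (adjusted p between 0.0537 and 0.153). Of 11 other integrin genes and activators, all were tested, and Itga4, the alpha chain of VLA-4, fell with rapamycin in intact BE (log2 -0.35 ± 0.0959, adjusted p = 0.0340). For intact BE under vehicle against nCas9 the list had 5 higher and 1 lower, for the catalytic mutant 2 and 0, and for seBE under vehicle 1 and 0.

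Among sensors of microbial products, Cd14 rose with rapamycin in intact BE. The gene (ENSMUSG00000051439.8) had 49.0, 32.2 and 33.9 CPM in seBE under rapamycin and 43.1, 39.6 and 34.3 CPM in seBE under vehicle. Intact BE held 65.5, 53.9 and 56.5 CPM under rapamycin and 37.2, 41.3 and 37.9 CPM under vehicle, the catalytic mutant 34.3, 39.2 and 38.9 CPM and nCas9 39.9, 39.4 and 39.9 CPM. Every intact BE library under rapamycin was above every other library. The test gave log2 fold change 0.60 ± 0.121 (SE), adjusted p = 0.00242, a fold of 1.51, and seBE was below intact BE under rapamycin (log2 fold change -0.61 ± 0.120 (SE), adjusted p = 0.00171). Both calls held in all 13 alternatives run for each. Tlr4, the receptor that Cd14 serves, had 22.1, 25.9 and 22.9 CPM in seBE under rapamycin and 23.5, 24.8 and 23.1 CPM in seBE under vehicle, and 36.0, 28.6 and 33.6 CPM in intact BE under rapamycin and 34.5, 29.9 and 28.6 CPM in intact BE under vehicle. It had 20.1, 25.7 and 28.3 CPM in the catalytic mutant and 26.7, 28.6 and 30.3 CPM in nCas9. Its only call was the lower level of seBE against intact BE under rapamycin (log2 fold change -0.47 ± 0.126 (SE), adjusted p = 0.0236), with no overlap of libraries, and it was lost without replicate 1 of seBE under rapamycin or replicate 1 or 3 of intact BE under rapamycin (adjusted p between 0.0873 and 0.153). Tlr2, a receptor for bacterial lipoproteins, ran from 9.35 to 17.3 CPM and passed in no comparison. With rapamycin in intact BE it was at 9.35, 11.4 and 12.9 CPM against 15.5, 17.3 and 15.1 CPM under vehicle, with log2 fold change -0.51 ± 0.161 (SE), adjusted p = 0.0782. Of 20 other genes of the Toll-like receptor pathway, 18 were tested. None of them passed with rapamycin in intact BE, where edgeR called 0 higher and 0 lower and the median was -0.07. Against nCas9, intact BE under vehicle had 4 of them higher and 1 lower, the higher ones being Myd88 (log2 0.32 ± 0.0983, adjusted p = 0.0171), Tirap, Cd180 and Traf6.

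Fcer1g and Tyrobp, the pair of adaptors that carry activation motifs for Fc receptors and related receptors, were lower in intact BE under vehicle than in nCas9. Fcer1g (ENSMUSG00000058715.12) had 305, 314 and 296 CPM in seBE under rapamycin and 284, 347 and 309 CPM in seBE under vehicle. It had 328, 338 and 318 CPM in intact BE under rapamycin and 293, 298 and 293 CPM in intact BE under vehicle, and 289.7, 344 and 319 CPM in the catalytic mutant and 398, 439 and 381 CPM in nCas9. All 3 nCas9 libraries lay above the other 15. The log2 fold change over nCas9 was -0.37 ± 0.0747 (adjusted p = 0.00332) in seBE under vehicle, -0.46 ± 0.0748 (adjusted p = 3.03e-05) in intact BE under vehicle and -0.35 ± 0.0747 (adjusted p = 0.00543) in the catalytic mutant. The call in intact BE held in all 13 alternatives. In seBE it was lost without replicate 1 of seBE under vehicle or replicate 2 of nCas9 (adjusted p between 0.0534 and 0.0690), and in the catalytic mutant without replicate 1 of the catalytic mutant or replicate 2 of nCas9 (adjusted p between 0.0503 and 0.0758).

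Tyrobp (ENSMUSG00000030579.11) had 395, 418 and 356 CPM in seBE under rapamycin and 358, 412 and 356 CPM in seBE under vehicle. Intact BE had 385, 387 and 388 CPM under rapamycin and 320.3, 324 and 317 CPM under vehicle. The catalytic mutant had 413, 380.2 and 348 CPM and nCas9 462, 467 and 405 CPM. The intact BE libraries under vehicle were the lowest 3 of the 18. Against nCas9 they gave log2 fold change -0.47 ± 0.0759 (SE), adjusted p = 2.82e-05, and against the catalytic mutant log2 fold change -0.25 ± 0.0759 (SE), adjusted p = 0.0178. With the length trend removed the adjusted p was 0.0524 and 0.676. The call against the mutant was also lost without replicate 1 or 3 of intact BE under vehicle or replicate 1 of the catalytic mutant (adjusted p between 0.0523 and 0.144). Rapamycin in intact BE raised Tyrobp (log2 fold change 0.27 ± 0.0758 (SE), adjusted p = 0.0359), a call that was lost without replicate 1, 2 or 3 of intact BE under rapamycin or replicate 1, 2 or 3 of intact BE under vehicle (adjusted p between 0.0941 and 0.152).

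Fcgr3 (ENSMUSG00000059498.14), whose protein signals through the chain made by Fcer1g, rose with rapamycin in intact BE. It had 273, 301 and 271 CPM in seBE under rapamycin and 254, 307 and 256 CPM in seBE under vehicle, and 334, 329 and 341 CPM in intact BE under rapamycin and 261, 269 and 276 CPM in intact BE under vehicle. Levels were 295, 284 and 300.4 CPM in the catalytic mutant and 264, 288 and 295 CPM in nCas9. The 3 intact BE libraries under rapamycin were above the other 15, and the test gave log2 fold change 0.32 ± 0.0729 (SE), adjusted p = 0.00746, with the call kept in all 13 alternatives. seBE was lower than intact BE under rapamycin (log2 fold change -0.25 ± 0.0727 (SE), adjusted p = 0.0380), a call lost without replicate 1 or 3 of seBE under rapamycin or replicate 1, 2 or 3 of intact BE under rapamycin (adjusted p between 0.0713 and 0.146). Of 19 other genes of Fc and ITAM receptor signalling, 18 were tested and 2 rose with rapamycin in intact BE: Fcgr2b, the inhibitory receptor for IgG (log2 0.38 ± 0.0755, adjusted p = 0.00194), and Sirpa, an inhibitory receptor for CD47 (log2 0.27 ± 0.0735, adjusted p = 0.0323). None fell. The list had 3 higher and 1 lower for intact BE under vehicle against nCas9, led by Clec7a, the receptor for fungal beta-glucan, which was lower (log2 -1.21 ± 0.197, adjusted p = 5.28e-05), and Btk, a signalling kinase, which was higher (log2 0.44 ± 0.0882, adjusted p = 3.49e-04).

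The receptors for colony-stimulating factors passed in different comparisons. Csf2rb (ENSMUSG00000071713.7), the beta chain that GM-CSF, IL-3 and IL-5 receptors share, had 232, 223 and 203 CPM in seBE under rapamycin and 235, 219 and 202 CPM in seBE under vehicle. It had 279, 267 and 246 CPM in intact BE under rapamycin and 213, 208 and 206 CPM in intact BE under vehicle, and 212, 236 and 228 CPM in the catalytic mutant and 202, 204 and 205 CPM in nCas9. Rapamycin raised it in intact BE (log2 fold change 0.34 ± 0.0724 (SE), adjusted p = 0.00430), where the 3 treated libraries were above the other 15. That call was lost without replicate 1 of intact BE under rapamycin (adjusted p = 0.0592). seBE was lower than intact BE under rapamycin (log2 fold change -0.27 ± 0.0721 (SE), adjusted p = 0.0248), and this call was lost without replicate 2 or 3 of seBE under rapamycin or replicate 1 or 2 of intact BE under rapamycin (adjusted p between 0.0708 and 0.166), and with the length trend removed (adjusted p = 0.0608). The mouse copy Csf2rb2, a near-identical neighbour that serves IL-3, rose with it in intact BE (log2 0.41 ± 0.0914, adjusted p = 0.00605). How reads shared by both copies were counted is not given in the sources used here, so the split between them is uncertain.

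Csf2ra (ENSMUSG00000059326.8), the chain that gives the GM-CSF receptor its specificity, had its lowest group means in intact BE. It had 111, 87.8 and 80.8 CPM in seBE under rapamycin and 107, 106 and 90.0 CPM in seBE under vehicle. It had 88.1, 97.0 and 72.5 CPM in intact BE under rapamycin and 64.8, 72.7 and 79.0 CPM in intact BE under vehicle, and 118, 112 and 103 CPM in the catalytic mutant and 102, 95.7 and 78.1 CPM in nCas9. Every library of intact BE under vehicle was below those of the catalytic mutant (log2 fold change -0.62 ± 0.117 (SE), adjusted p = 4.78e-04), a call that held in all 13 alternatives. seBE under vehicle was above intact BE under vehicle (log2 fold change 0.49 ± 0.117 (SE), adjusted p = 0.0200), without overlap, and the call was lost without replicate 1 or 2 of seBE under vehicle or replicate 1 or 2 of intact BE under vehicle (adjusted p between 0.0638 and 0.199). Against nCas9, intact BE was lower (log2 fold change -0.35 ± 0.117 (SE), adjusted p = 0.0304), but the libraries overlapped and the call was lost without replicate 1 or 2 of intact BE under vehicle or replicate 1 or 2 of nCas9 (adjusted p between 0.0779 and 0.175). Csf3r, the G-CSF receptor, had 31.2, 33.2 and 26.2 CPM in seBE under rapamycin and 26.5, 33.5 and 26.9 CPM in seBE under vehicle, and 21.2, 23.0 and 24.8 CPM in intact BE under rapamycin and 24.7, 26.2 and 21.1 CPM in intact BE under vehicle. It had 25.2, 38.7 and 24.8 CPM in the catalytic mutant and 29.9, 36.0 and 29.4 CPM in nCas9. Under vehicle intact BE was below nCas9 without overlap (log2 fold change -0.41 ± 0.146 (SE), adjusted p = 0.0414), a call lost without replicate 1 or 3 of intact BE under vehicle or replicate 1 or 2 of nCas9 (adjusted p between 0.0620 and 0.208). Csf1r, the M-CSF receptor, ran from 14.1 to 22.2 CPM and passed nowhere. Of 14 other genes of cytokine receptor signalling, 13 were tested. Against nCas9 the active editor under vehicle had 5 higher and 1 lower, among them Stat3 (log2 0.50 ± 0.0810, adjusted p = 3.22e-05) and Jak1 (log2 0.46 ± 0.0822, adjusted p = 1.02e-04) higher and Il3ra, the IL-3 receptor alpha chain, lower (log2 -0.92 ± 0.130, adjusted p = 5.96e-06). Stat3 was also higher than in nCas9 in seBE under vehicle (log2 0.46 ± 0.0811, adjusted p = 0.00113) and in the catalytic mutant (log2 0.39 ± 0.0812, adjusted p = 0.00460). With rapamycin in intact BE, Csf2rb2 was the only gene of the list to pass.

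Subunits of the NADPH oxidase passed in opposite directions. Cybb (ENSMUSG00000015340.11), the catalytic subunit gp91phox, had 61.5, 68.3 and 64.2 CPM in seBE under rapamycin and 56.8, 52.7 and 54.2 CPM in seBE under vehicle. It had 108, 84.8 and 94.2 CPM in intact BE under rapamycin and 90.8, 72.0 and 70.0 CPM in intact BE under vehicle, and 67.9, 53.2 and 52.6 CPM in the catalytic mutant and 66.7, 60.9 and 69.4 CPM in nCas9. Each intact BE library was above every library of the other constructs. Under vehicle, seBE was below intact BE (log2 fold change -0.51 ± 0.105 (SE), adjusted p = 0.00657), and under rapamycin too (log2 fold change -0.57 ± 0.103 (SE), adjusted p = 8.05e-04). Intact BE under vehicle was above the catalytic mutant (log2 fold change 0.43 ± 0.105 (SE), adjusted p = 0.00341), while its difference from nCas9 did not pass (log2 fold change 0.24 ± 0.104 (SE), adjusted p = 0.0937). The vehicle calls were lost without replicate 2 of seBE under vehicle or replicate 1 of intact BE under vehicle (adjusted p between 0.0587 and 0.114) for seBE and without replicate 1 of intact BE under vehicle (adjusted p = 0.0772) for the mutant, whereas the call under rapamycin held in all 13 alternatives.

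Cyba (ENSMUSG00000006519.12) encodes p22phox, the membrane partner that stabilises gp91phox. It had 283, 256 and 245 CPM in seBE under rapamycin and 269.9, 300.0 and 261 CPM in seBE under vehicle, and 208, 223 and 228 CPM in intact BE under rapamycin and 205, 228 and 250.0 CPM in intact BE under vehicle. The catalytic mutant had 325, 318 and 309 CPM, the highest 3 libraries of the 18, and nCas9 had 298, 266 and 277 CPM. Levels in intact BE under vehicle were lower than in the mutant (log2 fold change -0.48 ± 0.0767 (SE), adjusted p = 6.83e-05), in all 13 alternatives, and lower than nCas9 (log2 fold change -0.30 ± 0.0766 (SE), adjusted p = 0.00410), a call lost without replicate 1 of intact BE under vehicle (adjusted p = 0.0646). seBE was higher than intact BE under vehicle (log2 fold change 0.28 ± 0.0766 (SE), adjusted p = 0.0318) and under rapamycin (log2 fold change 0.25 ± 0.0764 (SE), adjusted p = 0.0485). The vehicle call was lost without replicate 1 or 2 of seBE under vehicle or replicate 1 or 2 of intact BE under vehicle (adjusted p between 0.0548 and 0.313), and that under rapamycin without replicate 1 or 2 of seBE under rapamycin or replicate 1, 2 or 3 of intact BE under rapamycin (adjusted p between 0.0747 and 0.218); with the length trend removed both were lost, at adjusted p = 0.288 and 0.271. Over the 18 libraries the log2 CPM of Cybb and Cyba had a Pearson correlation of -0.80, given as a description, since the libraries fall into 6 groups. Within groups it was -0.39. The genes differ in length, 5808 bp for Cybb and 1039 bp for Cyba, and the part of the length trend in the correlation was not tested.

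Ncf4 (ENSMUSG00000071715.13), the cytosolic regulator p40phox, followed Cyba more than Cybb, with a correlation of 0.83 with Cyba over the same libraries and of 0.58 within groups. It had 209, 206 and 178 CPM in seBE under rapamycin and 196, 214 and 195 CPM in seBE under vehicle, and 185, 184 and 171 CPM in intact BE under rapamycin and 153, 172 and 177 CPM in intact BE under vehicle. It had 223, 224 and 194 CPM in the catalytic mutant and 209, 219 and 199.7 CPM in nCas9. Intact BE under vehicle was lower than nCas9 (log2 fold change -0.32 ± 0.0784 (SE), adjusted p = 0.00264) and lower than the catalytic mutant (log2 fold change -0.35 ± 0.0785 (SE), adjusted p = 0.00142), with no overlap in either and both calls held in all 13 alternatives. seBE was higher than intact BE under vehicle (log2 fold change 0.27 ± 0.0785 (SE), adjusted p = 0.0430), a call lost without replicate 1, 2 or 3 of seBE under vehicle or replicate 1 or 2 of intact BE under vehicle (adjusted p between 0.0557 and 0.340), and with the length trend removed (adjusted p = 0.137). Ncf1, the organiser p47phox, stayed between 376 and 494 CPM and passed in no comparison. Of 8 oxidase partners, all were tested. For intact BE under vehicle, 3 were higher and 0 lower than in the catalytic mutant, the small GTPase genes Rap1a (log2 0.36 ± 0.0812, adjusted p = 0.00142), Rap1b and Rac1.

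Lyz2 (ENSMUSG00000069516.9), lysozyme of macrophages and neutrophils, was lowest in intact BE under vehicle and rose there with rapamycin. It had 606, 654 and 539 CPM in seBE under rapamycin and 567, 532 and 459.9 CPM in seBE under vehicle. It had 668, 666 and 587 CPM in intact BE under rapamycin and 430.0, 437 and 430.5 CPM in intact BE under vehicle, and 533, 618 and 498 CPM in the catalytic mutant and 487, 562 and 552 CPM in nCas9. The 3 intact BE libraries under vehicle were below all 15 others. Rapamycin gave log2 fold change 0.57 ± 0.0842 (SE), adjusted p = 3.31e-05 in intact BE, a fold of 1.48, in all 13 alternatives. In seBE the libraries of the arms overlapped and rapamycin gave a log2 fold change of 0.21 ± 0.0839, adjusted p = 0.999. Under vehicle intact BE was lower than the catalytic mutant (log2 fold change -0.35 ± 0.0842 (SE), adjusted p = 0.00301) and lower than nCas9 (log2 fold change -0.30 ± 0.0842 (SE), adjusted p = 0.00767). The call against nCas9 was lost without replicate 2 of nCas9 (adjusted p = 0.0555), and with the length trend removed at adjusted p = 0.363, where that against the mutant was also lost (0.0669). Reads shared with the near-identical gene Lyz1 are a source of uncertainty in these counts. Cd68, a lysosomal membrane protein of macrophages, had 27.0 to 35.8 CPM in all libraries and passed in no comparison.

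Of the surface markers, Cd33 rose with rapamycin in intact BE. The gene (ENSMUSG00000004609.12) had 295, 321 and 314 CPM in seBE under rapamycin and 294, 287 and 266 CPM in seBE under vehicle. It had 379, 365 and 342 CPM in intact BE under rapamycin and 292, 264 and 236 CPM in intact BE under vehicle, and 243, 276 and 241 CPM in the catalytic mutant and 272, 293 and 283 CPM in nCas9. The drug gave log2 fold change 0.46 ± 0.0756 (SE), adjusted p = 1.69e-04 in intact BE, in all 13 alternatives. In seBE the 3 libraries under rapamycin were also above the 3 under vehicle, but the test gave log2 fold change 0.14 ± 0.0755 (SE), adjusted p = 0.999. Cx3cr1, the fractalkine receptor of patrolling monocytes, was low: 9.04, 11.1 and 9.12 CPM in seBE under rapamycin and 7.25, 5.81 and 8.54 CPM in seBE under vehicle, 4.96, 4.13 and 5.22 CPM in intact BE under rapamycin and 5.78, 4.79 and 4.50 CPM in intact BE under vehicle, and 4.63, 5.12 and 4.28 CPM in the catalytic mutant and 5.99, 3.91 and 7.77 CPM in nCas9. Under rapamycin seBE was above intact BE (log2 fold change 1.03 ± 0.239 (SE), adjusted p = 0.00865), a fold of 2.04, and the call was lost without replicate 2 of seBE under rapamycin (adjusted p = 0.0617). Adgre1, the macrophage marker F4/80, held 81.6 to 120.2 CPM and Ly6c2 907 to 1300.3 CPM, and neither passed in a comparison. Ly6c2 has a near-identical neighbour, Ly6c1, so its counts carry the same uncertainty as those of Lyz2.

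**Figure D4:**
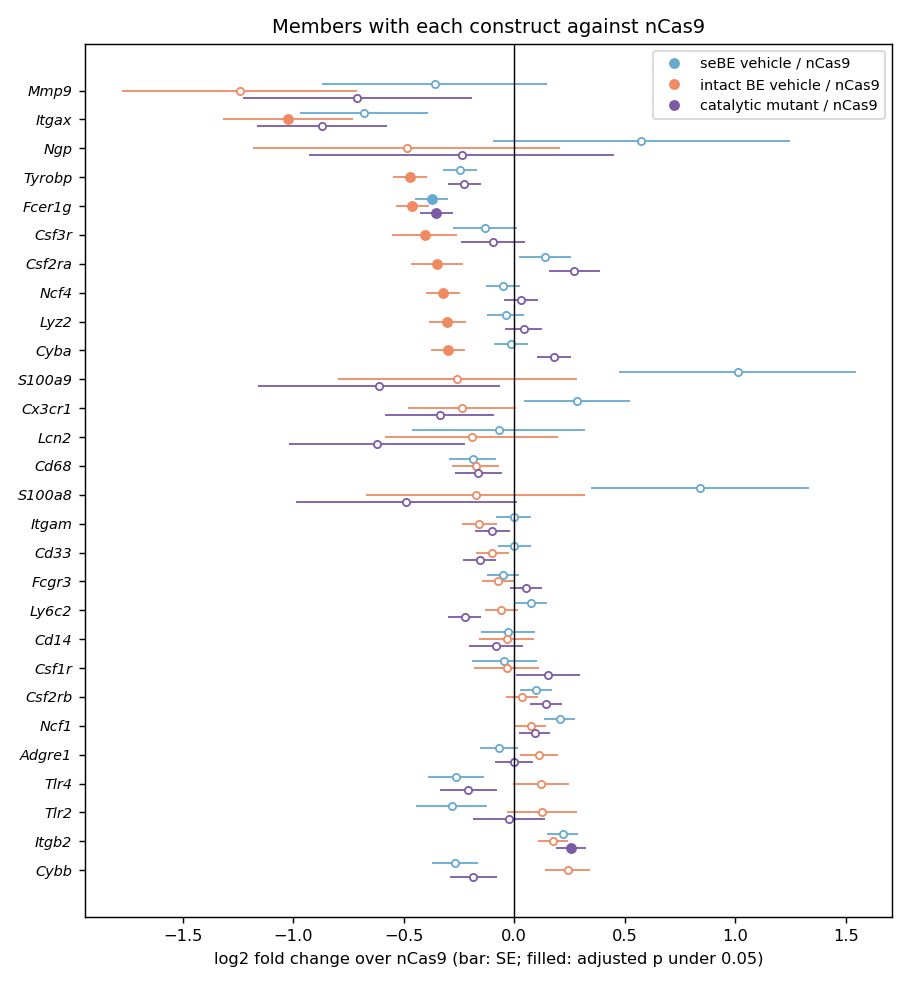
Log2 fold change over nCas9, with SE as bars, of 28 tested members in seBE under vehicle, intact BE under vehicle and the catalytic mutant. Filled dots passed the threshold. Camp, Ltf and Fcgr1 are left out because libraries were at 0. Itgax is the lowest filled dot, at -1.02 in intact BE, and Fcer1g is filled in all 3 constructs.

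The neutrophil proteins varied with the replicate number as well as with the group, more than any other members. S100a8 and S100a9 form the calprotectin dimer, and Ngp is a protein of secondary granules. S100a8 had 358, 299.9 and 160.0 CPM in seBE under rapamycin and 335, 275 and 155 CPM in seBE under vehicle. It had 274, 201 and 129.6 CPM in intact BE under rapamycin and 173, 121 and 84.4 CPM in intact BE under vehicle, and 153, 109 and 43.8 CPM in the catalytic mutant and 204, 126 and 98.1 CPM in nCas9. In all 6 groups the library numbered 1 was the highest and the library numbered 3 the lowest, and the same held for S100a9, Ngp and Lcn2. S100a9 had 251, 217 and 95.5 CPM in seBE under rapamycin and 249, 185 and 94.9 CPM in seBE under vehicle. It had 160.3, 132 and 74.9 CPM in intact BE under rapamycin and 102, 78.9 and 39.2 CPM in intact BE under vehicle, and 80.2, 61.0 and 30.6 CPM in the catalytic mutant and 123, 90.4 and 49.3 CPM in nCas9. Of the variance in log2 CPM over 18 libraries, the replicate number held 43.8% for S100a9 and the group 55.8%. For Ngp the number held 67.6% and the group 27.2%. In the 7 tested neutrophil proteins the share of the number ran from 35.4% for Ltf to that of Ngp, and in the other 24 tested members it was at most 29.5%, for Csf3r. The submitters' library names also change letter with the replicate number, and what the number stands for was not tested.

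At every replicate number the seBE libraries held the most S100a8 and S100a9. Yet in the fit without a term for the number, none of the tested neutrophil proteins passed in a comparison. A fit with such a term is described below, under how the results depend on the processing. S100a9 averaged 177 ± 77.5 CPM in seBE under vehicle and 73.2 ± 31.6 CPM in intact BE under vehicle (SD, n = 3 each), with log2 fold change 1.27 ± 0.540 (SE), adjusted p = 0.229. S100a8 averaged 255 ± 91.8 CPM in seBE under vehicle, against 126 ± 44.4 CPM in intact BE under vehicle (log2 fold change 1.01 ± 0.497 (SE), adjusted p = 0.307). With rapamycin in intact BE, S100a9 averaged 122 ± 43.5 CPM against 73.2 ± 31.6 CPM under vehicle (log2 fold change 0.74 ± 0.537 (SE), adjusted p = 0.615). Both genes varied together, with a Pearson correlation of 0.98 over the 18 libraries of 6 groups, given as a description, and both lie on chromosome 3. Mmp9, gelatinase, had 7.85, 5.60 and 1.32 CPM in intact BE under rapamycin and 1.98, 2.16 and 1.02 CPM in intact BE under vehicle, and missed the threshold with rapamycin (log2 fold change 1.53 ± 0.529 (SE), adjusted p = 0.132). Lcn2, an iron-binding protein of granules, averaged 2.44 ± 0.923 CPM in intact BE under rapamycin against 4.03 ± 0.333 CPM under vehicle (log2 fold change -0.72 ± 0.401 (SE), adjusted p = 0.435). Ngp averaged 15.5 ± 9.06 CPM in seBE under vehicle, against 7.37 ± 2.88 CPM in intact BE under vehicle (log2 fold change 1.06 ± 0.688 (SE), adjusted p = 0.487).

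**Figure D5:**
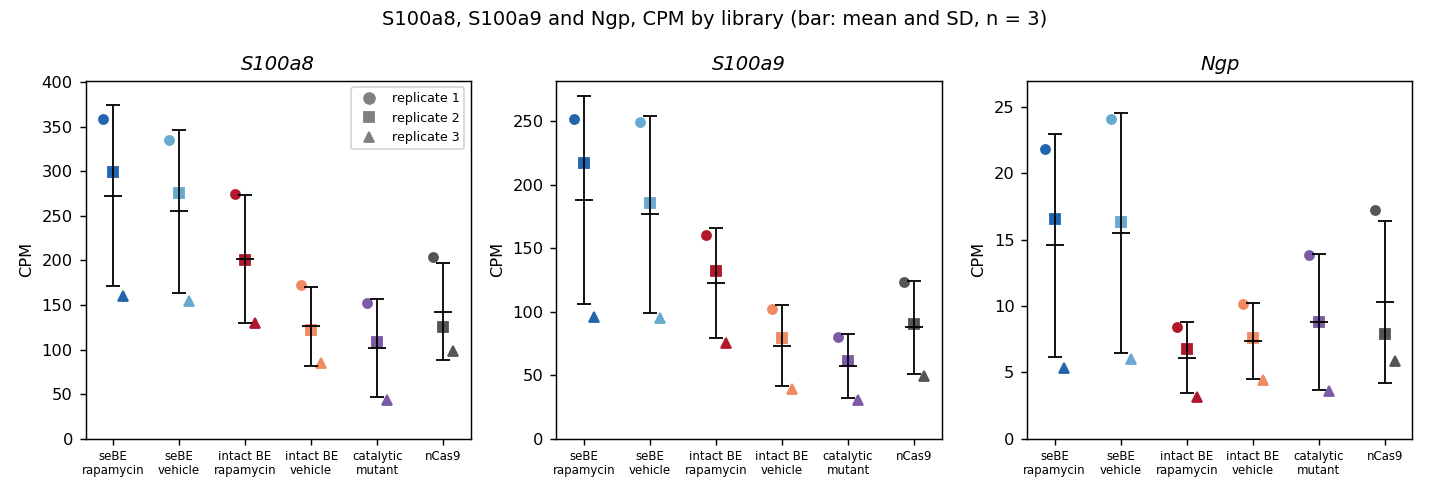
CPM of S100a8, S100a9 and Ngp in the 6 groups, with a symbol for each replicate number and the mean with SD as a bar (n = 3). In every group and panel the circle of replicate 1 is the highest and the triangle of replicate 3 the lowest, and the seBE groups reach the highest values.

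The promoters of the 2 calgranulin genes are shown because the genes varied together, as RefSeq windows of the same kind, with matches to the same 3 motifs in capitals.
S100a8: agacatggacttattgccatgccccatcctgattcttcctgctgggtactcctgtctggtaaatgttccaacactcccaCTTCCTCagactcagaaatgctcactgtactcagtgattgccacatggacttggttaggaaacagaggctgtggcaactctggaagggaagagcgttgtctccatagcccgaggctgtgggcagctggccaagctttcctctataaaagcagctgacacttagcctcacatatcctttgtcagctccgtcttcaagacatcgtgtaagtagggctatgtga
S100a9: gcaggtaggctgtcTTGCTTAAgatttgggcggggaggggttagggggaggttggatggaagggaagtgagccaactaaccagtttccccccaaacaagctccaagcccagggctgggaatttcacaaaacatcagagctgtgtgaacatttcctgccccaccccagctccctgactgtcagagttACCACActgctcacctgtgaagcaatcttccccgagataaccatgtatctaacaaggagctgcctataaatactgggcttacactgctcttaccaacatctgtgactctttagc
They lie at chr3:90668821-90669120 on the plus strand for S100a8 and at chr3:90695672-90695971 on the minus strand for S100a9, so the genes are read from opposite strands. S100a8 held 1 PU.1 match, beginning at base -171 from the start. S100a9 held a C/EBP match at -236 and a RUNX match at -64. No motif was shared by both windows.

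None of the lineage factors Cebpe, Spi1 and Cebpa passed the threshold with rapamycin, while the constructs differed in the first 2. Cebpe, needed for granule genes late in neutrophil development, averaged 141 CPM in seBE under rapamycin and 152 under vehicle, 144 CPM in intact BE under rapamycin and 121 under vehicle, 174 CPM in the catalytic mutant and 113 CPM in nCas9. It was higher than in nCas9 in seBE under vehicle (log2 0.42 ± 0.0856, adjusted p = 0.00364) and in the catalytic mutant (log2 0.62 ± 0.0857, adjusted p = 1.34e-04), and lower in intact BE under vehicle than in the mutant (log2 -0.52 ± 0.0856, adjusted p = 8.40e-05). Spi1, which encodes PU.1, was higher than in nCas9 in seBE under vehicle (log2 0.34 ± 0.0887, adjusted p = 0.0218) and in the catalytic mutant (log2 0.45 ± 0.0888, adjusted p = 0.00346). Intact BE under vehicle was below the mutant (log2 -0.34 ± 0.0887, adjusted p = 0.00523). Cebpa passed in no comparison, with group means of 189 to 241 CPM. With rapamycin in intact BE none of the 3 passed, at log2 0.25 ± 0.0853, adjusted p = 0.110 for Cebpe, 0.09 ± 0.0885, adjusted p = 0.758 for Spi1 and 0.22 ± 0.0793, adjusted p = 0.143 for Cebpa.

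Genes with the most similar profile over the 6 group means were picked for members that passed in a comparison, as a description over 6 points that share libraries. They had the highest r among the tested genes with a symbol, leaving out those named by a Gm number or a Rik name. The r values are therefore high by selection and test nothing. Fcgr3 was most like Csf2rb2 (r = 0.994), Cd14 most like Sirpa (r = 0.992) and H2afv (r = 0.990) and Itgam most like Ikzf2 (r = 0.995) and Nlrc4 (r = 0.989). For Cd33 they were Lyrm9 (r = 0.983) and Alox5ap (r = 0.983), for Lyz2 Fbxw7 (r = 0.992) and Gstm1 (r = 0.991) and for Csf2rb Mnt (r = 0.994) and Chd7 (r = 0.994). Tyrobp was most like the ribosomal protein gene Rpl17 (r = 0.997), Fcer1g like Ubb (r = 0.998) and Tmem144 (r = 0.989) and Cyba like Hdgfl2 (r = 0.999) and Pmf1 (r = 0.998). Cybb was most like Sclt1 (r = 0.996) and Tbl1xr1 (r = 0.991) and Csf2ra like Ubtd1 (r = 0.997) and Brf1 (r = 0.996).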

How the data were processed

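RNA from sorted RN2 cells was sequenced as polyA-selected directional libraries, 3 in each of 6 groups. The authors deposited a table of raw counts per gene; per the submitters' processing notes the tools were fastp 1.0.1, STAR 2.7.1a, SAMtools 1.9, featureCounts in Subread 2.0.3 and DESeq2, with build GRCm39. No source used here gives the strand setting, the annotation release or the treatment of reads with several matches. Gene symbols were matched to 52073 of 56748 IDs.

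The deposited counts were fitted here with edgeR 4.0.16 (R 4.3.3, limma 3.58.1): filterByExpr kept 14985 genes with 99.9% of counts, TMM scaled the libraries, and 1 quasi-likelihood model of 6 group means gave 9 comparisons, with Benjamini-Hochberg adjusted p-values over all kept genes and a threshold of 0.05. CPM and TPM were computed here, TPM with merged exon lengths of GENCODE M21. An exact permutation test of 3 libraries against 3 cannot go below 0.1. The fit was tested on simulated data. Alternatives were DESeq2 1.42.0, no filter, at least 1 CPM in 3 libraries, a replicate block, a length trend removed, the compared libraries only, and each library left out in turn.

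The members, the 9 lists of related genes (133 genes: oxidase, Fc and ITAM, Toll-like, integrin, cytokine, chemokine, granule, macrophage and transcription factor lists) and the 9 lists of cell type markers were chosen with earlier results of these data known. Values per library are given for members that passed in a comparison. From each list up to 4 genes that passed were eligible in a comparison, by adjusted p, and Spi1, Cebpa and Cebpe were always given. Results of some genes outside the members are not reported here.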

Additional observations from a re-analysis of the deposited data

Results flagged for a closer look

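Itgam, the alpha chain of Mac-1, was the only member in which the effect of rapamycin differed between the editors by a direct test. In seBE a change in the editor's state, if rapamycin controls it, cannot be told apart from exposure to the drug. The drug effect in seBE minus that in intact BE was -0.58 ± 0.112 in log2 (SE, adjusted p = 0.0127, edgeR's quasi-likelihood interaction term). Itgam had 153, 163 and 134 CPM in seBE under rapamycin and 152, 151 and 146 CPM in seBE under vehicle, against 223, 193 and 186 CPM in intact BE under rapamycin and 130.5, 143 and 131 CPM in intact BE under vehicle. The call was lost without replicate 1 of intact BE under rapamycin or replicate 3 of intact BE under vehicle (adjusted p between 0.0569 and 0.0928).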

How the results depend on the processing

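Of 37 member results past the threshold, 13 kept their call in every alternative run and 0 changed sign. DESeq2 called 5 members in the catalytic mutant against nCas9 (7.08% of all genes), 4 in seBE under vehicle against nCas9 (7.19%) and 7 in seBE against intact BE under vehicle (7.68%). With no filter there were 2 in seBE under vehicle against nCas9 and 2 in the difference between drug effects (Itgam and Cd14), and with at least 1 CPM in 3 libraries 2 in the first. A fit of the compared libraries alone called 2 in seBE under vehicle against nCas9, 8 in seBE against intact BE under vehicle and 4 in seBE against intact BE under rapamycin. Over all genes it called 1837 in seBE against intact BE under vehicle, beside 598 in the fit reported. Under rapamycin it called 312 of all genes between the editors, beside 703. Removing the length trend, an alternative added after the data were seen, left 5 in intact BE under vehicle against nCas9, 4 in the catalytic mutant against nCas9, 2 in seBE under vehicle against nCas9 and 2 in seBE against intact BE under vehicle. Over all genes that setting called 2897 in intact BE under vehicle against nCas9, beside 3442 in the fit reported. It called 573 in seBE under vehicle against nCas9, beside 684, and 416 in seBE against intact BE under vehicle, beside 598. Lengths from the count table could not be used, since it holds none, and those of GENCODE M21 took their place. Leaving out each library in turn gave 4 to 8 members for intact BE under vehicle against nCas9, 0 to 5 for the catalytic mutant against nCas9, 4 to 7 for intact BE under vehicle against the mutant, 0 to 2 for seBE under vehicle against nCas9, 0 to 4 for seBE against intact BE under vehicle, 5 to 7 for rapamycin in intact BE, 0 to 0 for rapamycin in seBE, 4 to 8 for seBE against intact BE under rapamycin and 0 to 2 for the difference between drug effects.

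Libraries with the same replicate number did not deviate together by the rule used: over 45 pairs the correlation of deviations ran from -0.07 to 0.11, and 1 was over 0.1, although 13 of 18 libraries correlated best with their own number. A fit with the replicate block called 6 members in the catalytic mutant against nCas9 (6.57% of all genes), 6 in seBE under vehicle against nCas9 (7.27%), 9 in seBE against intact BE under vehicle (7.83%), 11 in rapamycin in intact BE (4.72%), 14 in seBE against intact BE under rapamycin (7.24%) and 2 in the difference between drug effects (0.434%). It lost no member call, and S100a9 was among the genes it added in 8 comparisons. In seBE against intact BE under vehicle the adjusted p was then 2.40e-04 for S100a8, 1.67e-15 for S100a9 and 0.00218 for Ngp, all higher. With rapamycin in intact BE it was 0.00503 for S100a8, 2.01e-09 for S100a9, 0.00922 for Mmp9 and 0.0388 for Cybb, all higher. The replicate block with the length trend removed called 6, 6, 13 and 2 in the catalytic mutant against nCas9, seBE under vehicle against nCas9, rapamycin in intact BE and the difference between drug effects. In the difference between drug effects it called 77 over all genes, beside 28 in the fit reported.

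S100a9 in intact BE under vehicle against nCas9, at log2 -0.26, turned to 0.10 with the length trend removed, 0.083 with the block as well, 0.082 without nCas9 replicate 1 and 0.057 without replicate 3 of intact BE under vehicle. S100a8 in intact BE under vehicle against the mutant, at 0.31, turned to -0.047 without replicate 3 of the mutant. Leaving out 1 library gave -0.57 to 0.082 for the first and -0.047 to 0.72 for the second. None of these results passed the threshold as reported.

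Counts over all genes moved with the setting: 644 in the catalytic mutant against nCas9 (423 to 1061 in other fits and 122 to 748 with a library left out), 3141 in intact BE under vehicle against the mutant (2726 to 3559 in other fits and 1662 to 2989 with a library left out), 684 in seBE under vehicle against nCas9 (573 to 1089 in other fits and 122 to 907 with a library left out), 598 in seBE against intact BE under vehicle (416 to 1837 in other fits and 52 to 518 with a library left out), 497 in rapamycin in intact BE (517 to 873 in other fits and 214 to 398 with a library left out), 703 in seBE against intact BE under rapamycin (312 to 1085 in other fits and 256 to 1114 with a library left out) and 28 in the difference between drug effects (27 to 77 in other fits and 11 to 56 with a library left out). Precision rests on 3 libraries a group and a biological coefficient of variation of 13.3%.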

Other observations

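Of 11 listed chemokine and formyl peptide receptors outside the members, 9 were tested, and 1 rose with rapamycin in intact BE, Ccr1, a receptor of monocytes and neutrophils (log2 0.72 ± 0.122, adjusted p = 2.32e-04). Under rapamycin, seBE was below intact BE in Ccr1 (log2 -0.73 ± 0.121, adjusted p = 3.10e-04) and in Ccr2, the receptor that brings monocytes out of marrow (log2 -0.63 ± 0.0890, adjusted p = 2.49e-05). Ccr2 was lower than in nCas9 in seBE under vehicle (log2 -0.49 ± 0.0897, adjusted p = 0.00183) and in the catalytic mutant (log2 -0.64 ± 0.0902, adjusted p = 1.34e-04), while intact BE under vehicle was above the mutant (log2 0.67 ± 0.0903, adjusted p = 1.43e-05).

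Of 21 further macrophage genes, 12 were tested. Intact BE under vehicle had 2 higher and 5 lower than nCas9, the lower ones led by Gpnmb, a glycoprotein of lysosomes (log2 -0.84 ± 0.129, adjusted p = 1.85e-05), and Lgals3, galectin 3 (log2 -0.59 ± 0.125, adjusted p = 6.52e-04). Gpnmb fell further with rapamycin in intact BE (log2 -0.87 ± 0.134, adjusted p = 5.65e-05). It was also lower than in nCas9 in seBE under vehicle (log2 -0.83 ± 0.129, adjusted p = 1.95e-04) and in the catalytic mutant (log2 -0.63 ± 0.129, adjusted p = 0.00393). Of 14 listed genes of secondary and tertiary granules and of late neutrophils, 11 were tested. In seBE under vehicle 2 were higher and 1 lower than in nCas9. The higher ones were the transcription factor Cebpe, given above, and Hp, haptoglobin (log2 0.37 ± 0.0776, adjusted p = 0.00422). The lower one was Cd177 (log2 -0.98 ± 0.223, adjusted p = 0.00882). Of 15 myeloid transcription factors, 13 were tested, and with rapamycin in intact BE 0 rose and 1 fell, Irf8, a factor of monocyte development (log2 -0.63 ± 0.0896, adjusted p = 1.88e-05).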
